A study of Rattus norvegicus with 3 samples.

Results

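The genes described here build cholesterol, control its synthesis and carry it into, within and out of cells. The genes were chosen by name and number 37, of which 35 had a row among the 12771 entries of the expression table. ACAT2, which makes acetoacetyl-CoA in the cytosol, and LRP8, a neuronal receptor for APOE particles and reelin, had no row and are not analysed here. RNA was measured in the supernatant left after spinal cord of female Sprague Dawley rats, 3 months old, was digested at 6°C with a cold active protease and its cells were pelleted. Both groups had a laminectomy at T9, without contusion in No-SCI and with a contusion in SCI, and tissue just rostral to the injury was taken after 24 h. The study made this supernatant to enrich RNA of axons. By the labels, No-SCI has 2 libraries and SCI has 1, while the study's methods give 2 animals per condition. Every level below is the authors' FPKM value for a group, that is, fragments scaled to transcript length and to the number of mapped reads. There is 1 such value per gene and group and none per library, so the spread between animals cannot be seen, no test was run here, and "lower" or "higher" refers to these values alone. The depth behind each value is not in the table either, though the reads of all samples were brought to the same number before alignment.

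Cholesterol is assembled from acetyl-CoA through mevalonate, isoprenoid units and squalene, and its synthesis is set by SREBP transcription factors that SCAP escorts from the endoplasmic reticulum and INSIG proteins hold there when sterols are plentiful. The blood-brain barrier keeps plasma lipoproteins out, so the nervous system makes its own cholesterol. Oligodendrocytes need it for myelin, and astrocytes pass it on in APOE particles that neurons take up through lipoprotein receptors.

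Of the 35 listed genes 29 were lower and 6 higher in SCI, while 56.3% of all entries were lower. A difference of at least 2-fold (a log2 ratio of 1 in size) was found downward in 7, namely HMGCS1, CYP51, LSS, SREBF1, SC5D, VLDLR and DHCR7, and upward in 1, CH25H. Over all entries 12.1% were at least 2-fold lower and 7.96% at least 2-fold higher. At 1.5-fold, 14 of the genes were lower and 2 higher, where 26.3% and 16.9% of all entries were. The median log2 ratio of SCI over No-SCI was −0.35 for the cholesterol genes and −0.12 for all entries. Setting the median of all entries to 0 adds 0.12 to each log2 ratio and evens the background to 9.59% lower and 9.55% higher, and 6 cholesterol genes then stay 2-fold lower. In bulk RNA of a supernatant, fewer cells of a type, less RNA per cell and less of that RNA in the supernatant cannot be told apart.

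**Figure D1:**
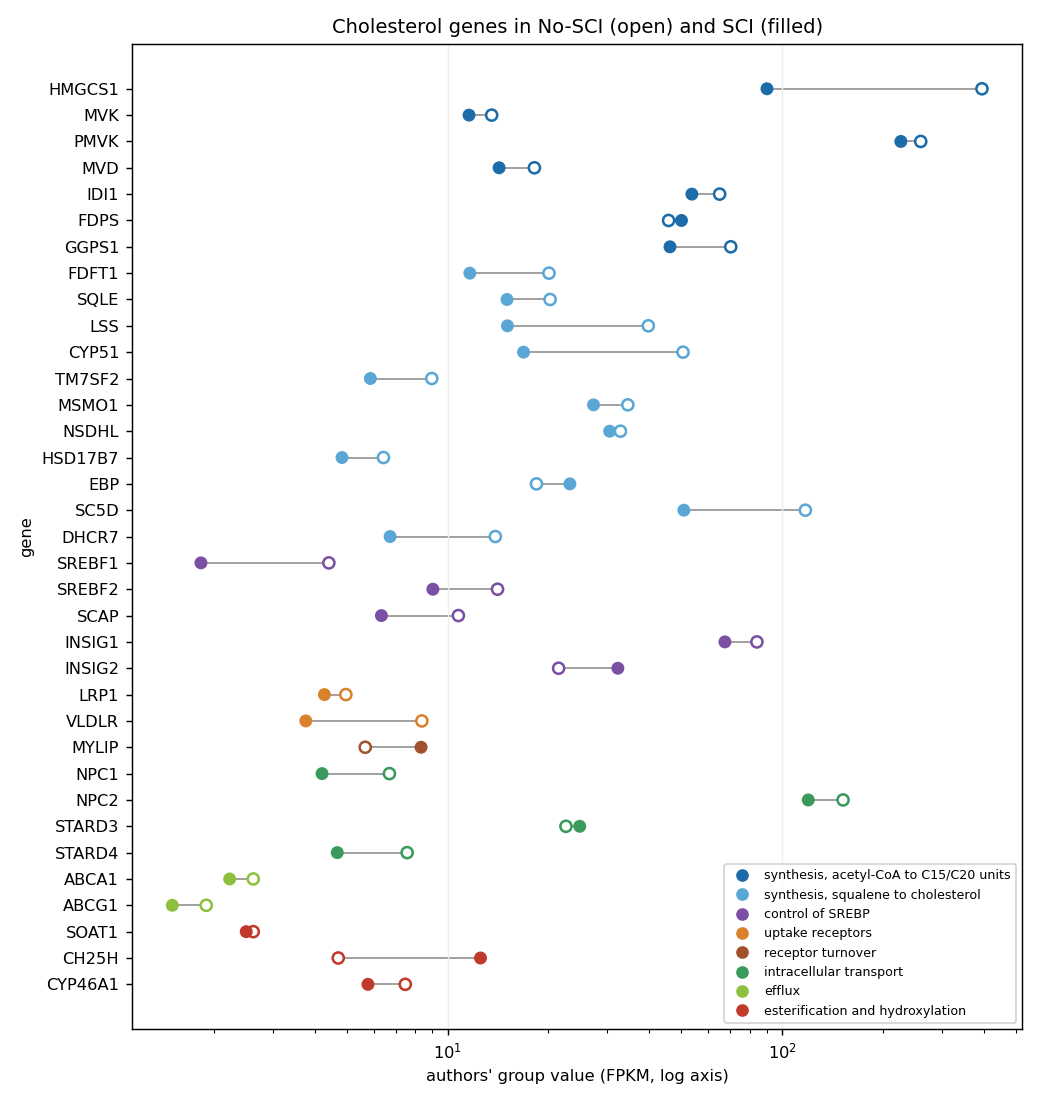
Authors' FPKM value of each listed gene (log axis) in No-SCI (open circles) and SCI (filled circles), coloured by role, with a line joining the 2 values of a gene; there is no error bar because there is 1 value per group. The longest line is that of HMGCS1, from 396 to 90.0 FPKM, and most filled circles lie to the left of their open circle.

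SREBP factors act at the promoters of synthesis genes, so the promoter sequences of 5 of the listed genes are shown, CH25H among them for comparison. HMGCS1, LSS and CYP51 are the synthesis genes with the lowest SCI to No-SCI ratios, FDPS is a synthesis gene that was not lower in SCI, and CH25H is the gene with the highest ratio. Each sequence runs 5′ to 3′ on the strand of the gene from 250 bases before the annotated start to 50 after it, as RefSeq gives it on the GRCr8 assembly, which is not the rn6 build on which the reads were aligned. The windows are chr2:53382054-53382353 (plus strand) for HMGCS1, chr20:12118181-12118480 (minus) for LSS, chr4:30991443-30991742 (plus) for CYP51, chr2:176804767-176805066 (minus) for FDPS and chr1:241429317-241429616 (minus) for CH25H. Capitals mark the letters CCAAT and the GC box letters GGGCGG on either strand, and in CH25H also TGACGTCA, and no marked matches overlap.
HMGCS1: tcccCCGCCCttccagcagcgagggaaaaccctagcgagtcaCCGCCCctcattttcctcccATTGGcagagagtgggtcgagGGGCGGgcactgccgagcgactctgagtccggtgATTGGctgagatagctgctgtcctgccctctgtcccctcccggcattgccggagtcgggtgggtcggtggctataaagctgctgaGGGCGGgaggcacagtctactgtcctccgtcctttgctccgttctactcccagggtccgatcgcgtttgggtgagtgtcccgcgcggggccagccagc
LSS: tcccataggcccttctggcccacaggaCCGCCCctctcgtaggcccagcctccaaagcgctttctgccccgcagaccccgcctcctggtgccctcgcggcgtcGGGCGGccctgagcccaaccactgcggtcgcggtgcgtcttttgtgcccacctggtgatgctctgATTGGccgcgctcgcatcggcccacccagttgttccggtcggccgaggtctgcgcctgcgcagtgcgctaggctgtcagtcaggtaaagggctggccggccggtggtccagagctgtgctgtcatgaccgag
CYP51: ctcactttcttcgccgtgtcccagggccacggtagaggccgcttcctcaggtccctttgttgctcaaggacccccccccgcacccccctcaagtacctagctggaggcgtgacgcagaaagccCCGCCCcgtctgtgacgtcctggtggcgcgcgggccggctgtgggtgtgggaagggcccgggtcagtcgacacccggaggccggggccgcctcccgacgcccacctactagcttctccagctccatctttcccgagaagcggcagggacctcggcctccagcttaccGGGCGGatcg
FDPS: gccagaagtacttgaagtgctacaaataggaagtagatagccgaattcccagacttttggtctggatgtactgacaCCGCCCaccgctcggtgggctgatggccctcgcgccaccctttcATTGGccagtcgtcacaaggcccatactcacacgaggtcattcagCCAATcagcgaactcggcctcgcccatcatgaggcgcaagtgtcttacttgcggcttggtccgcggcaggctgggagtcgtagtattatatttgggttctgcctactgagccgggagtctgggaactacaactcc
CH25H: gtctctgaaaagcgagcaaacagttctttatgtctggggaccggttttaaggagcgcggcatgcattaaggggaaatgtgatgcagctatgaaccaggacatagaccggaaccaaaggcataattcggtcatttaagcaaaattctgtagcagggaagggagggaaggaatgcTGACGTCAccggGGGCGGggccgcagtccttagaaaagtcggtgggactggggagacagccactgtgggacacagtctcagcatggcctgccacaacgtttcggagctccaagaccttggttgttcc

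The CCAAT letters are those of the box that NF-Y binds and GGGCGG those of the GC box that Sp1 binds, both known partners of SREBP. RefSeq windows were matched by symbol for 30 of the 35 listed genes, those of PMVK, FDFT1, SQLE, STARD4 and ABCG1 being without one. CCAAT was present in 22 of the 30, or 73.3%, against 39.1% of the 9762 genes of the expression table that have a window. Among synthesis enzymes it was found in 13 of 15, and among uptake, efflux and intracellular transport genes in 2 of 6. The HMGCS1 window held 2 CCAAT boxes and 4 GC boxes, and that of FDPS, which was not lower in SCI, 2 and 1. Of the 7 genes at least 2-fold lower, CYP51, DHCR7 and VLDLR had no CCAAT in the window. GGGCGG was present in 26 of the 30 windows (86.7%, against 62.5% of the genes of the table). The letters TCACNCCAC, a core of the sterol regulatory element, were in none of the 30 windows and in 1.20% of the genes of the table, and none in 30 is near that share. TGACGTCA, the cAMP response element, was found in CH25H alone, 1 of the 30 windows (3.33%), which is near the 3.17% of the genes of the table. These matches are letters in a window and not binding sites. A gene with several windows counts once, if any of them has the letters.

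The question put to the values was whether synthesis enzymes differed from the genes of transport. Of 18 listed synthesis enzymes 16 (88.9%) were lower in SCI, where 56.3% of all entries were. At least 2-fold lower were 5 (27.8%), against 12.1% of all entries. None was 2-fold higher, which in 18 genes is not far from the 7.96% of all entries. Of 8 listed genes of uptake, intracellular transport and efflux 7 (87.5%) were lower, nearly the share of the synthesis enzymes. At least 2-fold lower was 1 (12.5%), VLDLR, a share near the 12.1% of all entries. The median log2 ratios were −0.42 for synthesis and −0.34 for transport, a difference of −0.08. For uptake receptors and exporters without the intracellular carriers, 4 listed genes, the median was −0.29 and VLDLR was again the 1 gene at least 2-fold lower. This order did not hold under every way of computing it. With 1, the lowest value in the table, subtracted from every value the medians were −0.48 and −0.61, and among genes with a mean of at least 5 FPKM they were −0.42 and −0.67, so that transport was the lower of the pair. The transport genes were also less abundant. Their median No-SCI level was 7.13 FPKM, and that of the synthesis enzymes was 33.7 FPKM.

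**Figure D2:**
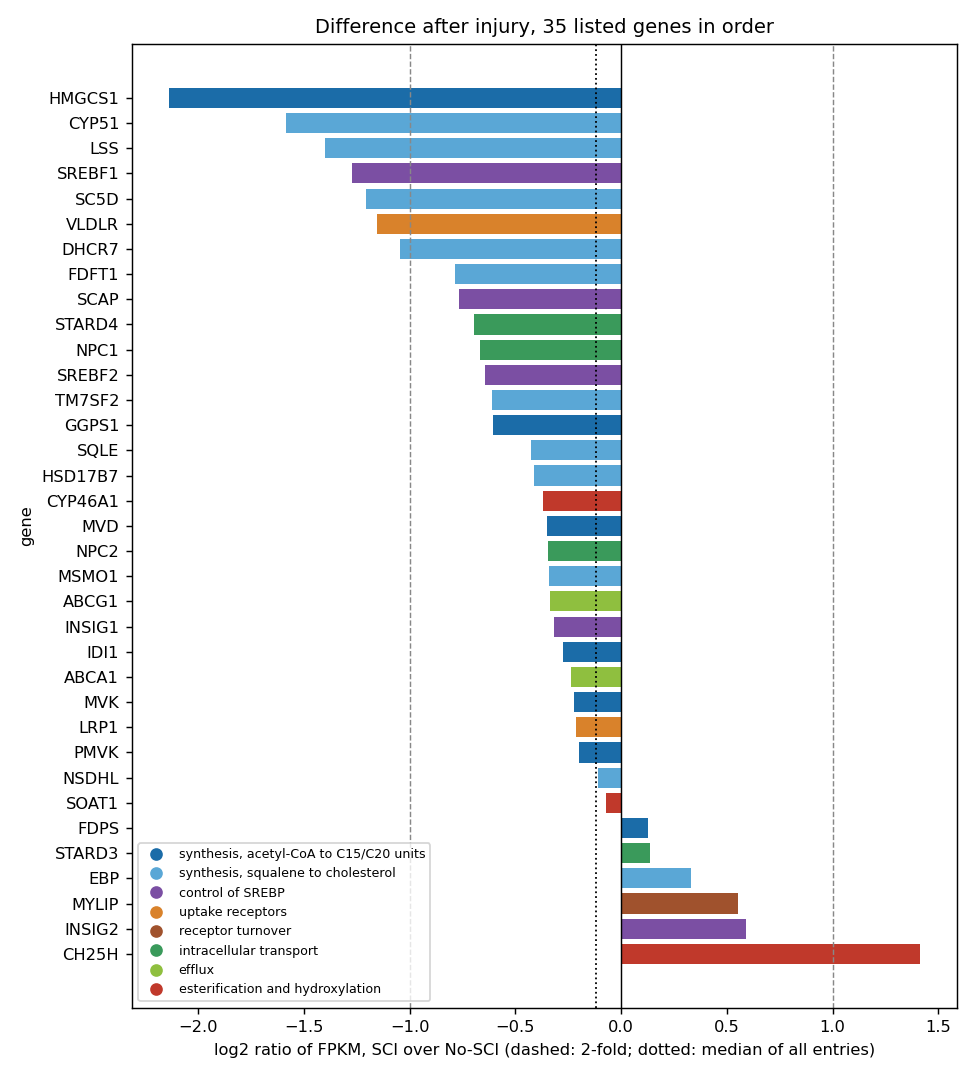
Log2 ratio of SCI over No-SCI for the 35 listed genes in order, coloured by role; dashed lines mark 2-fold and the dotted line the median of all entries, −0.12. Synthesis enzymes (blue shades) take 4 of the 5 lowest places, from HMGCS1 at −2.14 to SC5D at −1.21, and CH25H at 1.41 is the bar past the upper dashed line.

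Among the early enzymes, from acetyl-CoA to the isoprenoid units, 6 of 7 listed were lower. At least 2-fold lower was 1 (14.3%), a share near the 12.1% of all entries. HMGCS1, the cytosolic synthase of HMG-CoA, had 396 FPKM in No-SCI and 90.0 FPKM in SCI. That is 4.39-fold lower, a log2 ratio of −2.14, which only 0.940% of all entries were at or below. HMGCS1 was the most abundant of the listed genes in No-SCI, and in SCI it lay behind PMVK and NPC2.

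The kinases and the decarboxylase that follow differed much less. MVK, mevalonate kinase, went from 13.5 to 11.6 FPKM (log2 ratio −0.22). PMVK, phosphomevalonate kinase, went from 260 to 226 FPKM (−0.20), so that it was 2.51 times as abundant as HMGCS1 in SCI, where HMGCS1 had been 1.52 times as abundant as PMVK in No-SCI. MVD, mevalonate diphosphate decarboxylase, went from 18.2 to 14.2 FPKM (−0.35).

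The isoprenoid enzymes stayed within 2-fold. IDI1, the isomerase of isopentenyl diphosphate, had 65.0 FPKM in No-SCI and 53.7 FPKM in SCI (log2 ratio −0.28). FDPS, which makes farnesyl diphosphate, was slightly higher at 49.98 against 45.7 FPKM (0.13). GGPS1, which diverts farnesyl diphosphate to the geranylgeranyl unit used in protein prenylation, went from 70.2 to 46.2 FPKM (−0.60). FDPS was therefore the early enzyme with the higher value in SCI, and GGPS1, past the branch, was 1.52-fold lower.

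In the sterol part of the pathway, from squalene onward, all 11 enzymes were listed and 10 were lower. Of the 11, 4 (36.4%) were at least 2-fold lower, against 12.1% of all entries. The median over these 11 was −0.61 on the log2 scale, beside −0.28 for the early enzymes. This order did not hold for summed FPKM, where the log2 ratios were −0.80 and −0.82. CYP51, the demethylase of lanosterol, had 50.5 FPKM in No-SCI and 16.9 FPKM in SCI (log2 ratio −1.58). LSS, which closes the sterol rings, went from 39.8 to 15.1 FPKM (−1.40). Both steps act around lanosterol, the first sterol of the pathway.

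SC5D, a sterol desaturase, was the most abundant of these enzymes with 117 FPKM in No-SCI, and it had 50.8 FPKM in SCI (log2 ratio −1.21). DHCR7, which carries out a last reduction to cholesterol, went from 13.9 to 6.72 FPKM (−1.05). It lay just past 2-fold and was no longer past it after median centring (−0.93), upper quartile scaling (−0.94) or a pseudocount of 1 (−0.95). SC5D and DHCR7 act one after the other at the end of a branch of the pathway.

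FDFT1, squalene synthase, was next in order with 20.1 FPKM in No-SCI and 11.6 FPKM in SCI (log2 ratio −0.79). SQLE, squalene epoxidase and a point of control of flux, went from 20.2 to 15.04 FPKM (−0.43). TM7SF2, a sterol reductase, went from 8.96 to 5.87 FPKM (−0.61). These differences were between 1.35-fold and 1.72-fold.

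Apart from CYP51, the enzymes that remove the methyl groups of the ring differed by less than 1.5-fold. MSMO1, the methyl sterol oxidase, had 34.6 and 27.3 FPKM (log2 ratio −0.34). NSDHL, the dehydrogenase of the same complex, had 32.8 and 30.5 FPKM (−0.11), and its sign turned to 0.01 after median centring. HSD17B7, which reduces the ketone formed there, had 6.42 and 4.83 FPKM (−0.41). EBP, the sterol isomerase that acts after them, was the one sterol enzyme with a higher value in SCI, 23.2 against 18.4 FPKM (0.33).

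Summed over the 18 listed synthesis enzymes the level was 1231 FPKM in No-SCI and 700 FPKM in SCI, a log2 ratio of −0.81. HMGCS1 made up 32.1% of that sum in No-SCI and 12.9% in SCI, and without it the sums were 835 and 610 FPKM and the log2 ratio −0.45, an alternative added after the values were seen.

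Of the 5 genes that control SREBP, 4 were lower in SCI and INSIG2 was higher. SREBF1, which encodes the SREBP isoform that drives fatty acid genes most, had 4.41 FPKM in No-SCI and 1.83 FPKM in SCI (log2 ratio −1.27). These lie near the table's lowest value of 1. A pseudocount of 1 brought the ratio to −0.94, and subtracting 1 from both values brought it to −2.04. SREBF2, whose product drives the cholesterol genes most, went from 14.1 to 9.03 FPKM (−0.64). The ratio of SREBF2 to SREBF1 was 3.19 in No-SCI and 4.94 in SCI.

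SCAP, the escort of SREBP, went from 10.8 to 6.34 FPKM (log2 ratio −0.76). INSIG1, the retention protein that is itself an SREBP target, went from 84.0 to 67.4 FPKM (−0.32). INSIG2, its paralog, went the other way from 21.5 to 32.3 FPKM (0.59). INSIG1 was 3.92 times as abundant as INSIG2 in No-SCI and 2.09 times in SCI.

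The uptake receptors were present at low levels. VLDLR, a receptor for APOE particles and reelin, had 8.37 FPKM in No-SCI and 3.76 FPKM in SCI (log2 ratio −1.15). A pseudocount of 1 brought this to −0.98. LRP1, a large scavenger and APOE receptor, had 4.96 FPKM in No-SCI and 4.28 FPKM in SCI (−0.21). MYLIP, the ubiquitin ligase that sends VLDLR and other receptors of the family to the lysosome, was higher in SCI at 8.32 against 5.67 FPKM (0.55). VLDLR was thus above MYLIP in No-SCI and below it in SCI, although neither difference has an error.

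Inside the cell, NPC2, the soluble protein that binds cholesterol in the lysosome, was the most abundant carrier with 152 FPKM in No-SCI and 120 FPKM in SCI (log2 ratio −0.35). NPC1, the membrane protein to which NPC2 hands cholesterol, was at 6.69 and 4.21 FPKM (−0.67). NPC2 was 22.7 times as abundant as NPC1 in No-SCI and 28.4 times in SCI. STARD4, a cytosolic sterol carrier, went from 7.56 to 4.67 FPKM (−0.69), whereas STARD3, which sits on late endosomes, had 22.6 and 24.8 FPKM (0.14).

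The exporters ABCA1, which loads cholesterol onto apolipoproteins, and ABCG1, which adds it to lipoprotein particles, were among the least abundant of the listed genes. ABCA1 had 2.62 FPKM in No-SCI and 2.23 FPKM in SCI (log2 ratio −0.23). ABCG1 had 1.90 and 1.501 FPKM (−0.34). After subtraction of 1 these ratios were −0.40 and −0.84, so that at such levels the size of the difference rests on the handling of the lowest value.

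Of the enzymes that modify cholesterol, CH25H, a hydroxylase that forms an oxysterol and is induced in macrophages by interferon, was the gene with the highest ratio. It had 4.71 FPKM in No-SCI and 12.5 FPKM in SCI, 2.66-fold higher, a log2 ratio of 1.41. It was 1.25 under a pseudocount of 1 and 1.64 after subtraction of 1. CYP46A1, the neuronal hydroxylase through which the brain disposes of cholesterol, had 7.47 and 5.77 FPKM (−0.37). SOAT1, which esterifies cholesterol for storage, had 2.62 and 2.498 FPKM (−0.07), with the sign turned by median centring (0.05) and upper quartile scaling (0.03).

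Other genes of the pathway were described from separate lists. Of 14 listed genes of other synthesis and degradation control 11 (78.6%) were lower in SCI, where 56.3% of all entries were. Their median log2 ratio was −0.44. At least 2-fold lower was 1 (7.14%), a share below the 12.1% of all entries, and none was 2-fold higher. MBTPS1, the protease that first cuts SREBP, ACAT1 and AUP1 were the most abundant of that group in No-SCI, at 31.7, 21.5 and 18.7 FPKM in No-SCI and 23.6, 15.8 and 17.4 FPKM in SCI.

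Among fatty acid genes that SREBP-1 is known to drive, 16 of 18 were listed, 15 were lower and 10 (62.5%) were at least 2-fold lower, with 12.1% of all entries as the background. Their median log2 ratio was −1.10. Alternatives were added after the values were seen. After median centring 6 of the 16 were at least 2-fold lower, against 9.59% of all entries, with a median of −0.98. With a pseudocount of 1, 7 of the 16 were, against 9.53% of all entries. MID1IP1, an activator of acetyl-CoA carboxylase, was the most abundant and went from 487 to 225 FPKM (−1.11). GPAM, which starts glycerolipid synthesis, had the lowest ratio with 13.4 and 4.22 FPKM (−1.67). FASN, fatty acid synthase, went from 5.53 to 2.62 FPKM (−1.08), and ACACA, acetyl-CoA carboxylase, from 5.002 to 2.31 FPKM (−1.12). The log2 ratios of SCD, FADS1, LPIN1, ELOVL7, ME1 and ACSS2 were −1.39, −1.28, −1.25, −1.25, −1.21 and −1.003, where SCD may stand for Scd2 as well, since RefSeq lists the symbol as a synonym of that gene. ELOVL1 was the single gene of the list with a higher value in SCI, 125 against 104 FPKM (0.26).

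Among genes of lipoproteins and their receptors 10 of 17 listed (58.8%) were lower, close to the 56.3% of all entries. APOE, the main lipid carrier of the nervous system, had 10448 FPKM in No-SCI and 11804 FPKM in SCI (log2 ratio 0.18), and APOD had 4973 and 5159 FPKM (0.05). CLU, the next in abundance, had 1103 and 613 FPKM (−0.85). Of the 17 listed genes, SORT1 (−1.11) and OLR1 (−1.15) were at least 2-fold lower and CD36, a scavenger receptor, was higher with 29.6 FPKM in SCI against 6.76 FPKM in No-SCI (2.13). These shares, 11.8% lower and 5.88% higher, are near those of all entries. Of 23 listed genes of other sterol transfer, storage and efflux 20 were lower and 4 (17.4%, against 12.1% of all entries) at least 2-fold lower, which were CAV2 (−1.83), OSBPL6 (−1.63), OSBPL1A (−1.22) and OSBPL8 (−1.08). PLIN2, TSPO and CAV1, the most abundant of these, had log2 ratios of −0.32, 0.63 and −0.43.

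**Figure D3:**
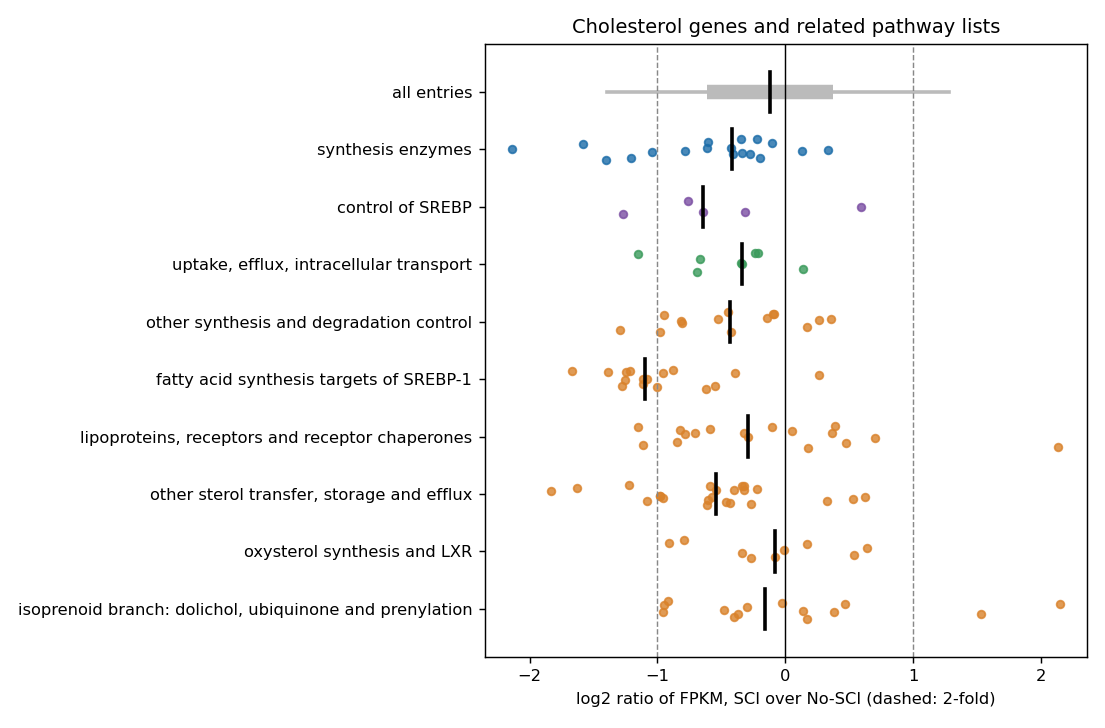
Log2 ratio of SCI over No-SCI for each listed gene of the cholesterol groups (blue, purple, green) and of the related lists (orange); black ticks are medians, dashed lines mark 2-fold, and for all entries the thick bar spans the middle 50%, from −0.61 to 0.37, and the thin bar the 5% to 95% range, from −1.39 to 1.28. The fatty acid list has its median at −1.10, left of the 2-fold line as deposited, while the synthesis enzymes have theirs at −0.42.

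Most markers of oligodendrocytes, astrocytes and neurons were lower in SCI as well, and their part in the results above was not tested. Of 19 oligodendrocyte markers 17 were listed, 14 of them lower and 9 at least 2-fold lower (52.9%, against 12.1% of all entries), and their summed level was 90433 FPKM in No-SCI and 49126 FPKM in SCI, with no row for MBP and ENPP2. Of 16 astrocyte markers 11 were listed, 10 lower and 7 (63.6%) at least 2-fold lower, with sums of 14229 and 9028 FPKM, and GFAP, S100B, AQP4, SLC1A3 and ALDOC had no row. Of 18 neuronal markers 16 were listed, 14 lower and 5 (31.2%) at least 2-fold lower, with sums of 6264 and 3836 FPKM. The median log2 ratios of the oligodendrocyte, astrocyte and neuronal lists were −1.11, −1.31 and −0.68, beside −0.42 for the synthesis enzymes. MOBP and BCAS1 were the most abundant oligodendrocyte markers and had log2 ratios of −0.68 and −0.98. NDRG2, GLUL and ATP1B2, the most abundant astrocyte markers in No-SCI, had −1.31, −0.06 and −1.84, and MAPT, MAP2 and GAP43, the most abundant neuronal markers there, had −0.85, −1.32 and 0.14.

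Beside the higher value of CH25H stand the lists of macrophages and of meningeal fibroblasts. Of 16 markers of microglia and macrophages 15 were listed, all but CTSS, with sums of 1280 and 1461 FPKM. Of the 15, 3 (20%) were at least 2-fold lower (P2RY12, CX3CR1 and CSF1R) and 2 (13.3%) at least 2-fold higher (CD68 and C1QC). Over all entries these shares were 12.1% lower and 7.96% higher. All 15 meningeal fibroblast markers were listed, 14 of them (93.3%) at least 2-fold higher, with sums of 110 FPKM in No-SCI and 1109 FPKM in SCI. With MYH1 and MYH2, whose values are identical, counted once, skeletal muscle markers went the other way, with sums of 431 and 45.8 FPKM. Of these 9 markers 8 (88.9%) were at least 2-fold lower. Of 9 oligodendrocyte precursor markers 4 (44.4%) were at least 2-fold lower and none was 2-fold higher. Of 11 endothelial and mural markers 1 was at least 2-fold lower and 1 higher (9.09% each), near the shares of all entries. Of 5 blood markers 1 (20%) was at least 2-fold lower and 2 (40%) higher. Whether these cells contributed to the value of CH25H was not tested.

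**Figure D4:**
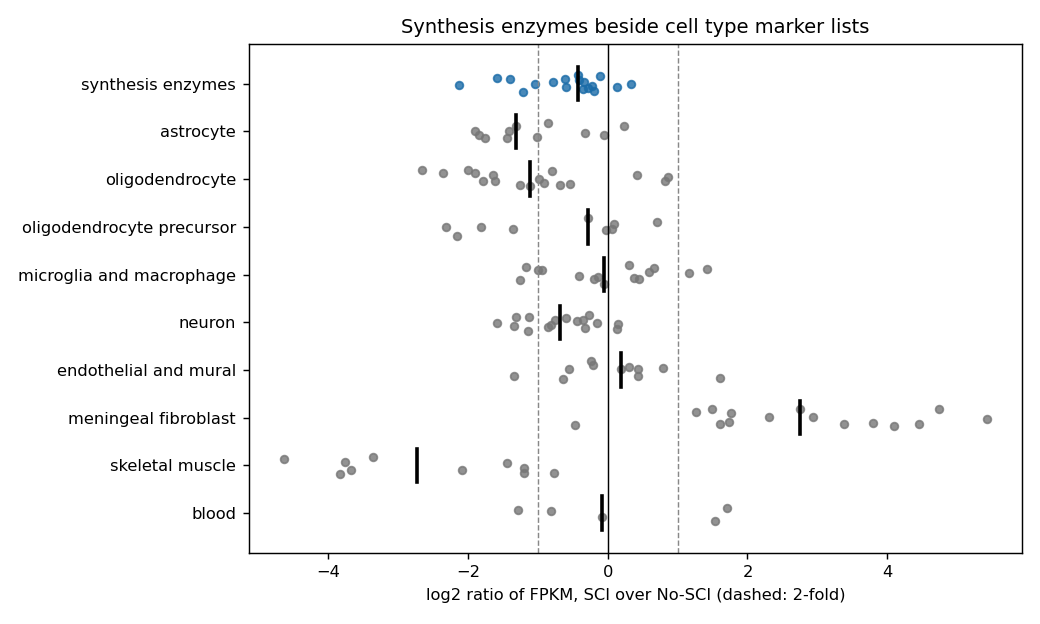
Log2 ratio of SCI over No-SCI for the synthesis enzymes (blue) and for the listed genes of each cell type marker list (grey), with medians as black ticks and 2-fold as dashed lines. The astrocyte and oligodendrocyte medians, −1.31 and −1.11, lie left of that of the synthesis enzymes, −0.42, and that of the meningeal fibroblast list, 2.75, lies far to the right.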

How the data were processed

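Per the labels and the study's methods, ribosomal RNA was depleted, strand-specific total RNA libraries were sequenced, and reads were downsampled to the smallest library, aligned to rn6 with STAR 2.5.4b and compared by Cuffdiff (cufflinks 1.3.0) after upper quartile scaling. The table the authors deposited gives 12771 entries, each with 1 FPKM value for No-SCI and 1 for SCI, none below 1. Columns of the authors' own comparison (fold change, log2 fold change, p-value, q-value and a call) were not used. The 2 value columns were assigned by the group named in each row, and 0 were left over.

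The log2 ratio of SCI over No-SCI was computed without pseudocount or filter, and a gene counted as different at 2-fold. With 1 value per group no test was run. The members and lists were chosen with earlier results of these data known. All members were named, and of the other lists the 3 genes most abundant in No-SCI and those past 2-fold (in the cell type lists, examples of these), and some genes that meet this rule are not reported here. Names and promoter windows came from RefSeq (GRCr8), and all 37 symbols matched. No gene of a list was among the 13 symbols that have several rows. Of the listed cholesterol genes 18 had values of 7 significant digits and the others fewer. The steps were tested on simulated data. The alternatives were pseudocounts of 1 and 0.1, subtraction of 1, median centring, upper quartile and total scaling, a mean of at least 5 FPKM, folds of 1.5 and 3, and means or sums in place of medians. Python 3.11.15 with numpy 2.4.6, pandas 2.3.3 and matplotlib 3.10.9 was used.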

Additional observations from a re-analysis of the deposited data

How the results depend on the processing

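The depth of each library was not in the table, and 1 value per group leaves no spread to set against any difference. No paired analysis was possible because only 1 value per group was given, and for the same reason no library could be left out. The count of cholesterol genes at least 2-fold lower was 7 as deposited, 4 with a pseudocount of 1, 14 at a fold of 1.5 and 1 at a fold of 3, and that of genes higher was 1, then 2 at a fold of 1.5 and 0 at a fold of 3. Under the other scalings, the small pseudocount, the subtraction and the filter the counts were 6 or 7 lower and 1 higher. The shares of all entries moved as well. With a pseudocount of 1 they were 9.53% lower and 6.41% higher, and 4 of 35 genes lower is near the first. After subtraction of 1 they were 16.2% and 10.4%, and 7 of 35 genes lower is not far from the first. At a fold of 1.5 they were 26.3% and 16.9%. The 3 genes lost with a pseudocount of 1 were DHCR7, SREBF1 and VLDLR.

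The median log2 ratio of the synthesis enzymes, −0.42 as deposited, was −0.38 and −0.41 with pseudocounts of 1 and 0.1, −0.48 after subtracting 1, −0.30 after median centring, −0.32 with the same upper quartile and −0.37 with the same total. It was −0.62 as a mean and −0.81 from sums. For uptake, efflux and intracellular transport, −0.34 as deposited, the values in the same order were −0.28, −0.33, −0.61, −0.22, −0.24 and −0.30, then −0.67 with the filter on the mean, −0.44 as a mean and −0.32 from sums.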

Other observations

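The branch that leads from farnesyl diphosphate to ubiquinone, dolichol and prenylated proteins had 2 of 14 listed genes (14.3%) at least 2-fold higher. Over all entries 7.96% were, and 2 in 14 is not far from that share. COQ2, which attaches the isoprenoid tail of ubiquinone to its ring, had 15.6 FPKM in No-SCI and 69.3 FPKM in SCI, a log2 ratio of 2.15. PDSS1, which builds that tail, had 4.04 and 11.7 FPKM (1.53), whereas its partner subunit PDSS2 had 32.9 and 32.3 FPKM (−0.02, with the sign turned by each scaling tried). Of 14 listed genes of the branch 8 (57.1%) were lower, near the 56.3% of all entries, and none was at least 2-fold lower, where 12.1% of all entries were. FNTA and RCE1, which act in farnesylation and in trimming prenylated proteins, had log2 ratios of −0.40 and 0.38.

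Among genes of oxysterol synthesis and the oxysterol receptors LXR, 9 of 12 were listed and none differed by 2-fold in either direction. Over all entries 12.1% were 2-fold lower and 7.96% higher, so that none in 9 is not far from those shares. NR1H2, which encodes LXR beta, had 176 FPKM in No-SCI and 198 FPKM in SCI (log2 ratio 0.17), NCOR1, a corepressor, had 100.4 and 95.2 FPKM (−0.08), and HSD3B7 had 53.0 and 82.7 FPKM (0.64). No test was run on these values.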
